A study of Mus musculus with 2 samples.

Results

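C1q, the recognition molecule of the classical complement pathway, is assembled from 3 chains encoded by C1qa, C1qb and C1qc. The chains were taken by their gene symbols, 3 of 31053 genes in the count tables, and were followed through the cells of both libraries of a study of microglia from the brain cortex. Both libraries came from male 5xFAD hemizygous mice, which carry amyloid transgenes, on the C57BL/6J strain at 5.5 months of age. The photoconversion library came from mice that received 5 uL of the photosensitiser Visudyne into the cisterna magna at 4 months, followed by 5 steps of 689-nm red light through the skull, which ablates meningeal lymphatic vessels. The control library came from mice that received the same Visudyne injection without light. Injections were given again after 3 weeks, and cortices were collected another 3 weeks on. The sort kept singlets negative for SYTOX and Ly6G and positive for CD45 and CD11b. Each library pooled cells of 3 mice, so there is 1 library per group, no replicate check and no test. Intervals are exact 95% intervals that cover counting error only, and each difference is one between these libraries or between cells within them.

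C1q binds antibodies, dying cells and synapses, and each molecule is built from equal numbers of the A, B and C chains, each with a collagen-like stalk and a globular head. It carries the proteases C1r and C1s, which cleave C4 and C2 and so lead to the cleavage of C3. In the brain microglia are the main source of C1q, and microglial C1q has been tied to synapse removal in amyloid models.

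Barcodes with 200 or more detected genes, and no more than 10% of their UMIs (unique molecular identifiers) from mitochondrial genes, were taken as cells. This left 317 of 2000 barcodes after photoconversion and 555 of 2000 in the control. These cells held 1816177 and 2422711 UMIs, with medians of 3410 UMIs per photoconversion cell and 2670 UMIs per control cell. At least 3 UMIs of microglia markers were present in 315 of 317 photoconversion and 551 of 555 control cells. Monocyte markers summed to 29 UMIs after photoconversion and 184 in the control, and border macrophage markers to 18 and 96. Barcodes with at least 3 marker UMIs of astrocytes, vessels, oligodendrocytes and neurons, and more of these than of microglia, numbered 8 after photoconversion and 10 in the control. The libraries listed 27 barcodes in common, of which 0 were kept in both.

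In mm10 the 3 genes lie side by side on the minus strand of chromosome 4, each with 3 exons. C1qb (ENSMUSG00000036905) spans 136880129 to 136886187, C1qc (ENSMUSG00000036896) 136889804 to 136893065 and C1qa (ENSMUSG00000036887) 136895917 to 136898803. The gaps between them are 3616 and 2851 bp, and the block of 18675 bp holds 0 other annotated genes. The nearest protein-coding neighbours, the ephrin receptor genes Ephb2 and Epha8, are 44140 and 30615 bp away and had 0 UMIs in kept cells of both libraries. The high C1q counts were therefore not shared by the flanking genes.

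The coding sequences show what the chains share and where they differ. Each holds a run of codon triplets that start with GGN, a glycine codon, as in collagen. The longest such run has 16 triplets in C1qa, 29 in C1qb and 16 in C1qc. The first 10 triplets of each run, from the principal GENCODE transcript with the GGN codons in capitals, read:
C1qa: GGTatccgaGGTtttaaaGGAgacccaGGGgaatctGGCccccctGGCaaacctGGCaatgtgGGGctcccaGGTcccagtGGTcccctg
C1qb: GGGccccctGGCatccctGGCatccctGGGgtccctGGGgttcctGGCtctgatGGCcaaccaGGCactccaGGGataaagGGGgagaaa
C1qc: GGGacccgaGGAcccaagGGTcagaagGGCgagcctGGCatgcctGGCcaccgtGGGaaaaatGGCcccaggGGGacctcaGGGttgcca
The spacing of glycine codons is common to the 3 chains while the bases between them differ. Across whole transcripts of 1040, 1088 and 1203 bases, any pair of chains shared 0 stretches of 25 bases, so a long read of one chain has no identical stretch in another.

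Promoter windows from RefSeq (GRCm38.p6, 250 bases before and 50 after the start) were matched for C1qb and C1qc. They are shown because the chains move together from cell to cell. Capitals mark GAGGAA, a core motif of PU.1, and TGCTGA, a half-site of MAF factors, searched on both strands, with no overlap between the motifs in these windows. The bases before the annotated gene, 5′ to 3′ on the gene's strand, read:
C1qb, chr4:136886201-136886450: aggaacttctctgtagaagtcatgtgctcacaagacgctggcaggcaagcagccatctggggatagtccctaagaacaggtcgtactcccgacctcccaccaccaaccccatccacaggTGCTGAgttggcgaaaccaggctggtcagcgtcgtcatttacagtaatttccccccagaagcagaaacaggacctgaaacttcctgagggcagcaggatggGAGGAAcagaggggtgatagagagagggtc
C1qc, chr4:136893066-136893164: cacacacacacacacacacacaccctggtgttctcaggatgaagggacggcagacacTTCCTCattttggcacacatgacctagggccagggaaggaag
In C1qb the GAGGAA match begins at -30 from the RefSeq start and the TGCTGA match at -131. The whole 300-base window of C1qc has 1 match, GAGGAA on the other strand at -193, and none of TGCTGA. The RefSeq start of C1qc lies inside the annotated gene, which begins at 136893065. Only 99 bases of the window therefore precede the gene, and the match takes up bases 58 to 63 of these. Its distance from the annotated gene is thus shorter than its distance from the RefSeq start. Of 32851 promoter windows of this length, 28.3% hold GAGGAA and 19.5% hold TGCTGA on either strand. These are matches of letters, and binding was not measured.

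C1q was among the most abundant messages of these cells, at nearly the same level in both libraries. The chains took 2.80% of all UMIs of kept cells after photoconversion, or 28011 CPM (UMIs scaled to the usual common library total), against 27948 CPM in the control. The ratio was 1.002 (0.991 to 1.014). C1qa had 18676 UMIs (10283 CPM) after photoconversion and 25100 UMIs (10360 CPM) in the control, a ratio of 0.993 (0.974 to 1.012). C1qb had 17236 UMIs (9490 CPM) and 22855 UMIs (9434 CPM), a ratio of 1.006 (0.986 to 1.026). C1qc had 14961 UMIs (8238 CPM) and 19754 UMIs (8154 CPM), a ratio of 1.010 (0.989 to 1.032). All 3 intervals include 1. Of the 3 chains, 0 lay past 1.5-fold, as did 4.91% of the 4009 genes with at least 100 UMIs, whose median ratio was 0.958.

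The chains ranked 8, 9 and 12 by UMIs among 12939 genes with a UMI after photoconversion, and 5, 9 and 13 among 13608 in the control. Per kilobase of transcript, C1qa stood at 9888 CPM per kb after photoconversion and 9962 in the control, C1qb at 8723 and 8671, and C1qc at 6848 and 6778. The order C1qa, C1qb, C1qc was thus the same per UMI and per length. Which end of a transcript was read is not given in the sources used here, so these levels are not molar amounts of mRNA.

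Within single cells the chains together took a median of 270 of 10000 UMIs after photoconversion (quartiles 188 to 370) and 288 in the control (189 to 385). The highest cell reached 1151 per 10000 after photoconversion and 893 in the control. All 3 chains were detected in 298 of 317 photoconversion cells (94.0%, 90.8 to 96.4%) and in 509 of 555 control cells (91.7%, 89.1 to 93.9%). Thinned to 1000 UMIs, with 45 and 116 shallower cells left out, all 3 were present in 259 of 272 cells (92.0 to 97.4%) and in 417 of 439 cells (92.5 to 96.8%). Cells with no C1q UMI numbered 5 after photoconversion and 7 in the control, at 371 to 741 UMIs after photoconversion and 269 to 725 UMIs in the control. Of these, 3 and 1 were barcodes of other cell types.

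Free RNA in droplets can place C1q UMIs in cells that do not make it. In the barcodes of other cell types C1q stood at 1278 CPM after photoconversion (8 barcodes, 19 UMIs) and 1776 CPM in the control (10 barcodes, 64 UMIs). That was 0.0453 of the level in the remaining photoconversion cells (0.0272 to 0.0707) and 0.0627 of that in the remaining control cells (0.0483 to 0.0800). Thinned to 1000 UMIs, 0 of 3 such photoconversion barcodes and 0 of 6 such control barcodes had all 3 chains, which with so few barcodes allows a share of up to 70.8% and 45.9%. Barcodes under 200 genes carried C1q at 15136 CPM after photoconversion and 17901 CPM in the control.

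**Figure D1:**
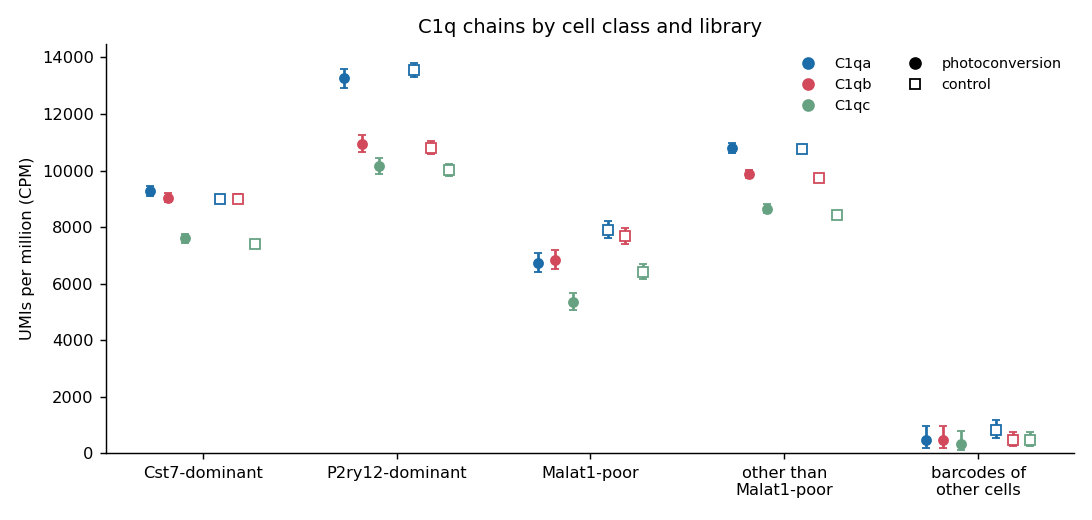
Level of each chain in CPM (vertical axis, from 0) in classes of kept cells, with photoconversion as filled circles and control as open squares; bars are exact 95% Poisson intervals. C1qa is the highest chain in P2ry12-dominant cells, at 13258 and 13539 CPM, and nearly level with C1qb in Cst7-dominant cells, and barcodes of other cells lie near the axis.

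The level of C1q differed between cells that carried more Cst7 and cells that carried more P2ry12. Cst7 encodes cystatin F, a protease inhibitor raised in disease-associated microglia, and P2ry12 encodes a purinergic receptor of homeostatic microglia. A cell was called Cst7-dominant or P2ry12-dominant by the larger of the 2 counts, which splits a range and does not define a cell type. After photoconversion 157 cells were Cst7-dominant, 133 P2ry12-dominant and 27 equal, and in the control 207, 290 and 58. In 31 photoconversion and 57 control cells the counts were 1 UMI apart.

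In Cst7-dominant cells C1q stood at 25915 CPM and in P2ry12-dominant cells at 34348 CPM after photoconversion, a ratio of 0.754 (0.740 to 0.769). In the control library it stood at 25411 CPM in Cst7-dominant and 34376 CPM in P2ry12-dominant cells, a ratio of 0.739 (0.728 to 0.751). Between libraries the Cst7-dominant level had a ratio of 1.020 (1.005 to 1.035) and the P2ry12-dominant level 0.999 (0.980 to 1.019). The distance between classes was thus far larger than that between libraries, and both libraries showed it.

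The distance was widest for C1qa and narrowest for C1qb. C1qa had a ratio of Cst7-dominant to P2ry12-dominant cells of 0.700 (0.679 to 0.722) after photoconversion and 0.664 (0.648 to 0.681) in the control. For C1qc it was 0.749 (0.723 to 0.775) and 0.739 (0.718 to 0.760), and for C1qb 0.826 (0.799 to 0.853) and 0.834 (0.812 to 0.856). The intervals of the 3 chains did not overlap within either library. After photoconversion 0 of 3 chains lay past 1.5-fold lower, against 23.7% of 1871 genes. In the control 1 of 3 did, C1qa, against 27.6% of 2479 genes, so the chains did not stand out from other genes by the size of this difference. The median gene had a ratio of 0.966 after photoconversion and 0.876 in the control. Over a list of 14 other abundant microglial genes, of which 11 were below 1 in the photoconversion library and 10 in the control library, the median ratio was 0.748 and 0.721, close to that of the summed chains.

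Measured as UMIs per cell the order of the classes was the opposite. A Cst7-dominant cell held a median of 165 C1q UMIs after photoconversion and a P2ry12-dominant cell 114, and in the control 130 and 96.5. Cst7-dominant cells were deeper, with medians of 5852 UMIs against 2739 after photoconversion and 4655 against 2206 in the control. Ribosomal protein genes took a median of 25.1% of UMIs in Cst7-dominant and 13.1% in P2ry12-dominant photoconversion cells, and 24.8% and 8.97% in control cells. C1q per UMI therefore has a denominator that differs between the classes.

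Along the balance of the 2 genes, C1q in CPM was lower with each step toward Cst7. In photoconversion cells with at least 3 UMIs of both genes together, C1q stood at 34996 CPM where Cst7 made up less than 10% of them (72 cells). It stood at 33587, 32570 and 26656 CPM in the bins up to 35, 65 and 90% (41, 25 and 77 cells), and at 23716 CPM above 90% (48 cells). In the control the same bins stood at 38567, 29788, 25955, 25650 and 25073 CPM (170, 71, 45, 98 and 66 cells). In the control most of the distance lay between the first 2 bins, and after photoconversion it lay between the third and the fourth. The library ratio was 0.907 (0.884 to 0.931) in the bin below 10% and 1.255 (1.211 to 1.300) in the bin of 35 to 65%, so equal totals over all cells did not mean equal levels at each point of this balance.

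**Figure D2:**
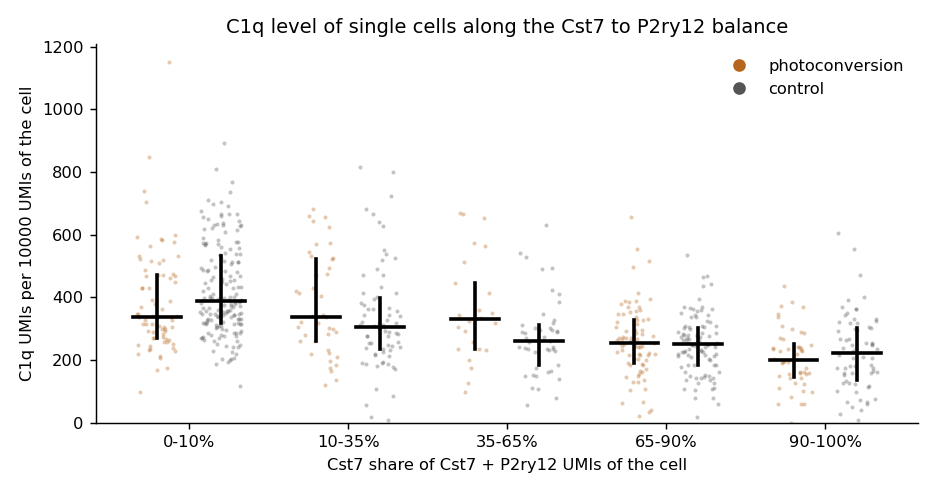
C1q UMIs per 10000 UMIs of each cell (vertical axis) by the share of Cst7 in its Cst7 and P2ry12 UMIs (horizontal axis); each point is a cell, with photoconversion left of control, horizontal bars are medians and vertical bars quartiles. The median is 339 after photoconversion and 387 in the control below 10%, and 201 and 223 above 90%.

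Cells of like depth were compared next, in ranges chosen after seeing the data. At 500 to 2000 UMIs C1q stood at 18920 CPM in 25 Cst7-dominant and 42058 CPM in 37 P2ry12-dominant photoconversion cells, a ratio of 0.450 (0.408 to 0.495). In the control it stood at 16893 CPM in 43 and 48239 CPM in 115 cells, a ratio of 0.350 (0.326 to 0.376). At 2000 to 8000 UMIs the ratios were 0.655 (0.635 to 0.676) after photoconversion and 0.766 (0.746 to 0.787) in the control. The P2ry12-dominant cells with the highest C1q fractions were thus shallow cells, which also held little ribosomal protein RNA, a median of 4.80% of UMIs after photoconversion and 4.36% in the control at 500 to 2000 UMIs.

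At 8000 UMIs and over the order was not seen. C1q stood at 26747 CPM in 68 Cst7-dominant and 26460 CPM in 10 P2ry12-dominant photoconversion cells, a ratio of 1.011 (0.972 to 1.052). In the control it stood at 25928 CPM in 85 Cst7-dominant cells and 16918 CPM in only 4 P2ry12-dominant cells, a ratio of 1.533 (1.416 to 1.661). Those 4 cells held 191, 244, 243 and 9.95 C1q UMIs per 10000. The lowest of them had 10 C1q UMIs, 2 P2ry12 UMIs and 26 UMIs of monocyte markers, while the other 3 had 0 monocyte marker UMIs. Of the 10 photoconversion cells, 2 carried monocyte marker UMIs, 14 in a cell at 261 C1q UMIs per 10000 and 4 in a cell at 185, against a lowest value of 137 among the cells with 0. With so few deep P2ry12-dominant cells, the comparison at this depth rests on single cells.

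**Figure D3:**
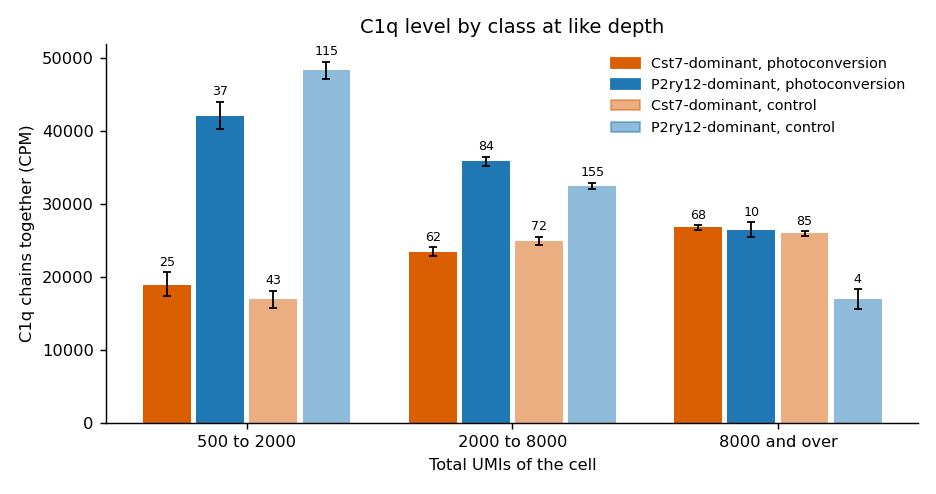
C1q chains together in CPM (vertical axis, from 0) in Cst7-dominant and P2ry12-dominant cells of each library, in 3 ranges of total UMIs per cell; error bars are exact 95% Poisson intervals and numbers above bars count cells. P2ry12-dominant cells are higher in both ranges below 8000 UMIs, at 42058 and 48239 CPM in the shallowest, and the range of 8000 UMIs and over has 10 and 4 such cells.

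Endothelial and mural markers also differed between the classes, in opposite directions in the libraries. Summed over 9 markers they stood at 250 CPM in Cst7-dominant and 17.1 CPM in P2ry12-dominant photoconversion cells, where Cldn5, Flt1, Vtn, Rgs5 and Acta2 were at 0. In the control they stood at 83.8 CPM in Cst7-dominant and 350 CPM in P2ry12-dominant cells, where Vtn was at 0. The 5 monocyte markers summed to 4.58 CPM in Cst7-dominant and 44.9 CPM in P2ry12-dominant photoconversion cells. In control cells the sums were 3.41 and 52.4 CPM, and Vcan was at 0 throughout. The difference was mostly of Plac8, at 0.763 against 42.8 CPM after photoconversion and 0.682 against 41.7 CPM in the control. Ccr2 stood at 2.29 against 2.14 CPM and at 1.36 against 7.14 CPM. Ly6c2 was detected in Cst7-dominant but at 0 in P2ry12-dominant photoconversion cells, and stood at 1.36 against 2.38 CPM in control cells. Cells of 8000 UMIs and over held 18 of the 21 monocyte marker UMIs of P2ry12-dominant photoconversion cells, and 26 of 44 in the control. The sum of the 7 border macrophage markers was higher in Cst7-dominant cells of both libraries. It was 11.5 CPM (15 UMIs) against 2.14 CPM (1 UMI) after photoconversion and 52.5 CPM (77 UMIs) against 11.9 CPM (10 UMIs) in the control. After photoconversion the Cst7-dominant UMIs were all of Pf4 and Ms4a7, and the 1 P2ry12-dominant UMI was of Mrc1. In the control Pf4 stood at 33.4 against 3.57 CPM and Mrc1 at 6.82 against 5.95 CPM. There F13a1 was at 0 in Cst7-dominant and detected in P2ry12-dominant cells. Lyve1 was at 0 throughout. Without the barcodes of other cell types the log2 ratio of C1q between classes was -0.40 after photoconversion and -0.44 in the control, against -0.41 and -0.44 with them. The part of the marker RNA in the remaining cells was not tested.

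The chain shares of C1q UMIs were nearly the same in both libraries. C1qa made up 36.7% of C1q UMIs after photoconversion (36.3 to 37.1%) and 37.1% in the control (36.7 to 37.4%). C1qb made up 33.9% (33.5 to 34.3%) and 33.8% (33.4 to 34.1%), and C1qc 29.4% (29.0 to 29.8%) and 29.2% (28.8 to 29.5%). The difference in the C1qa share was -0.36 percentage points (-0.92 to 0.20), photoconversion minus control. Per kilobase the shares were 38.8, 34.3 and 26.9% after photoconversion and 39.2, 34.1 and 26.7% in the control. The protein holds the chains in equal numbers. The shares per kilobase are not molar amounts of mRNA and protein was not measured, so no departure from equal numbers is read from them.

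The shares of C1qa and C1qb differed between classes in opposite directions, while that of C1qc was nearly level. The C1qa share was 35.8% in Cst7-dominant and 38.6% in P2ry12-dominant photoconversion cells, a difference of -2.80 percentage points (-3.71 to -1.88). In the control it was 35.4% and 39.4%, a difference of -4.00 points (-4.75 to -3.25). The C1qb share was 34.9% in Cst7-dominant and 31.8% in P2ry12-dominant photoconversion cells, a difference of 3.01 points (2.12 to 3.89), and 35.4% and 31.4% in the control, a difference of 4.01 points (3.29 to 4.74). The C1qc share differed by -0.22 points (-1.08 to 0.64) after photoconversion and -0.01 points (-0.71 to 0.69) in the control.

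The same exchange ran along depth, without reference to Cst7 or P2ry12. With photoconversion cells split by total UMIs into 4 sets of like size, low to high, the C1qa share was 40.8, 40.3, 37.6 and 35.2%, and in the control 41.3, 41.7, 38.0 and 35.2%. The C1qb share was 28.8, 31.1, 33.1 and 35.2% after photoconversion and 29.2, 30.1, 32.7 and 35.4% in the control, and C1qc lay between 28.2 and 30.3% throughout. At 2000 to 8000 UMIs the difference in the C1qa share between Cst7-dominant and P2ry12-dominant cells was -1.78 points (-3.29 to -0.27) after photoconversion and -1.12 points (-2.42 to 0.19) in the control. That of C1qb was 3.29 points (1.82 to 4.76) and 2.35 points (1.08 to 3.63). The C1qc share was lower there in Cst7-dominant cells, with a difference of -1.51 points (-2.91 to -0.089) after photoconversion and -1.23 points (-2.43 to -0.017) in the control. At 500 to 2000 UMIs the C1qa difference was -2.80 points (-7.53 to 2.02) after photoconversion and -4.47 points (-7.96 to -0.90) in the control. There the C1qb difference was -1.45 points (-5.74 to 3.03) after photoconversion, opposite in sign to that over all cells, and 6.84 points (3.44 to 10.3) in the control. At 8000 UMIs and over C1qa differed by 1.28 points (-0.63 to 3.15) after photoconversion and -0.50 points (-4.41 to 3.26) in the control, and C1qb by -1.53 points (-3.46 to 0.37) and 1.14 points (-2.75 to 4.89). At like depth the exchange between C1qa and C1qb was therefore seen in some depth ranges and not in others, and in the deepest range all 4 intervals included 0.

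**Figure D4:**
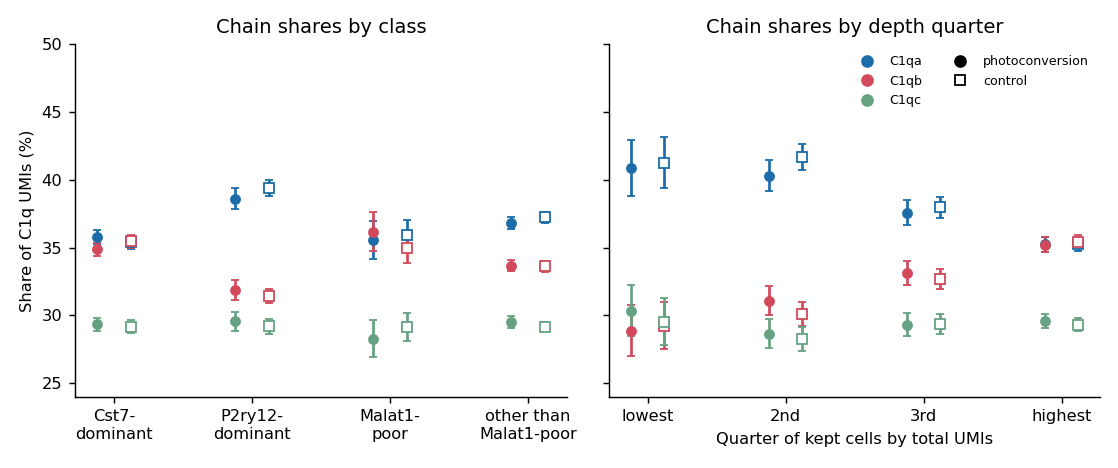
Share of each chain in C1q UMIs (vertical axis, percent, from 24 to 50%) by class of cells (left) and by set of cells ordered by total UMIs (right), photoconversion as filled circles and control as open squares, with exact 95% binomial intervals. C1qa and C1qb approach each other in Cst7-dominant cells and in the deepest set, where both chains are at about 35%, while C1qc stays between 28.2 and 30.3%.

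In single cells the stoichiometry was tight but varied more than sampling of UMIs alone would give. Among cells with at least 20 C1q UMIs (267 after photoconversion, 442 in the control), the C1qa share had quartiles of 32.9 and 42.4% after photoconversion and 32.9 and 43.4% in the control. Its SD was 7.55 percentage points against 4.96 under binomial sampling after photoconversion, and 7.67 against 5.38 in the control. The variance about the pooled share, over its binomial value, was 3.10 for C1qa, 2.64 for C1qb and 2.28 for C1qc after photoconversion, and 2.67, 2.34 and 1.67 in the control. C1qc was the most regular chain in both libraries.

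The excess was larger in Cst7-dominant cells. There the ratio of variances was 3.76 for C1qa, 3.09 for C1qb and 3.03 for C1qc after photoconversion, against 2.15, 1.93 and 1.53 in P2ry12-dominant cells. In the control it was 3.18, 2.48 and 2.08 in Cst7-dominant cells against 1.80, 1.75 and 1.44 in P2ry12-dominant cells. The ratio grows with UMIs per cell, of which Cst7-dominant cells have more. The SD in excess of sampling was 6.01 points for C1qa in Cst7-dominant and 4.81 in P2ry12-dominant photoconversion cells, and 5.46 and 4.33 in control cells. For C1qb it was 6.07 and 4.38 after photoconversion and 4.62 and 4.25 in the control. For C1qc it was 4.79 and 3.59 after photoconversion and 3.13 and 2.85 in the control, so there these chains were nearly level. Without Malat1-poor cells the C1qb values after photoconversion were 4.73 and 4.51 points.

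Which chain led a cell differed between the classes. Cells were not matched for depth here, and the C1qa share was lower in the deepest cells, as given above. C1qa had the most UMIs in 55 of 134 Cst7-dominant cells (41.0%, 32.6 to 49.9%) and 83 of 126 P2ry12-dominant cells (65.9%, 56.9 to 74.1%) after photoconversion. In the control it led in 70 of 168 (41.7%, 34.1 to 49.5%) and 177 of 257 (68.9%, 62.8 to 74.5%). C1qb led in 40.3% of Cst7-dominant and 18.3% of P2ry12-dominant photoconversion cells, and in 47.0% and 16.0% of control cells. C1qc led in 14.2% and 11.1% after photoconversion and in 7.74% and 10.5% in the control.

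Cells with a strongly skewed chain makeup were rare. Among the 225 photoconversion and 356 control cells with at least 50 C1q UMIs, a chain above 60% occurred in 1 photoconversion cell for C1qa and 1 for C1qb, and in 0 control cells. The most skewed, a Cst7-dominant photoconversion cell, held 5 C1qa, 54 C1qb and 13 C1qc UMIs of 3035 in all, with 23 Cst7 UMIs, 1 P2ry12 UMI and 99 UMIs of microglia markers. The control cell with the highest C1qa share, 58.5%, held 38 C1qa, 15 C1qb and 12 C1qc UMIs. A chain below 10% occurred in 2 photoconversion cells, the skewed cell above with C1qa at 6.94% and another with C1qc at 8.16% of 98 C1q UMIs, and in 0 control cells, where the lowest share was 11.5%, of C1qb.

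**Figure D5:**
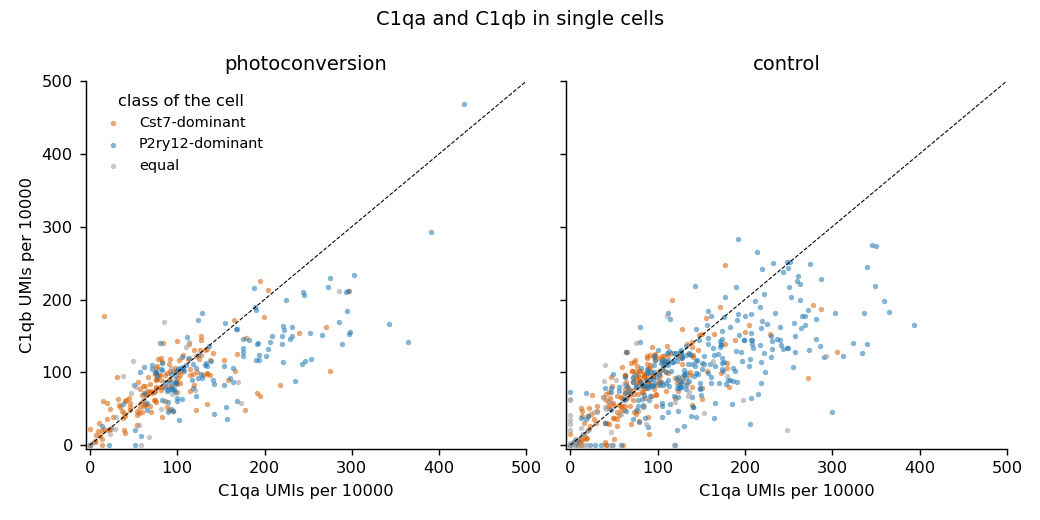
C1qa (horizontal axis) against C1qb (vertical axis), both in UMIs per 10000 UMIs of the cell, for kept cells of photoconversion (left) and control (right), coloured by class; the dashed line marks equal UMIs. Cst7-dominant cells lie along the line and P2ry12-dominant cells mostly below it, and 1 Cst7-dominant photoconversion cell with 54 C1qb and 5 C1qa UMIs lies far above it.

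Across cells the levels of the chains tracked each other closely. Over 309 photoconversion and 545 control cells, leaving out barcodes of other cell types, Pearson's r between log2(UMIs per 10000 + 1) of C1qa and C1qc was 0.733 after photoconversion and 0.749 in the control. Between C1qa and C1qb it was 0.724 and 0.661, and between C1qb and C1qc 0.608 and 0.687. Among 491 genes with at least 1000 UMIs, each chain ranked among the first 3 partners of each other chain in both libraries. Genes other than chains came before a chain in some of these orders, such as Ctss, encoding the lysosomal protease cathepsin S, with r of 0.737 to C1qa after photoconversion. Ctss also came before C1qb for C1qc after photoconversion, with 0.617. Points of such a correlation share a library, a depth and a denominator, so it is a description of these cells.

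A measure that conditions on the sum of both genes, in which a lower value means a steadier ratio, ordered the pairs differently, with C1qb and C1qc the closest pair in both libraries. For C1qb and C1qc the variance of the share between the 2 genes was 2.27 times binomial after photoconversion and 1.78 times in the control. The median over 21 genes of like abundance paired with C1qb was 10.1 after photoconversion and 9.01 in the control. For C1qa and C1qc it was 2.69 and 2.09, against medians of 13.2 and 11.9 over 22 genes. The closest gene outside the chains was Itm2b, an integral membrane protein gene, at 3.32 with C1qb after photoconversion and 2.40 in the control. With C1qb in the control Itm2b came before C1qa, at 2.75, so in that case a gene other than a chain was the nearer partner.

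The 8 genes most like the summed chains, by the lower r of both libraries among 492 genes, included Ctss (0.665), Itm2b (0.626), Cst3 (0.623), Cd81 (0.584), Lgmn (0.576), P2ry12 (0.540) and Csf1r (0.538). Cst3 encodes cystatin C, Lgmn the protease legumain and Csf1r the receptor for colony-stimulating factor 1. The genes at the other end were Rps27, Rps16, Tmsb4x, Ppia, Rpl38, Rplp0, Atox1 and Rpl35a. Their r ran between -0.30 and -0.41 over both libraries. Of these 8, 5 encode ribosomal proteins, whose share of UMIs differed between the classes as given above.

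Malat1-poor cells, in which the nuclear RNA Malat1 was below 0.1% of UMIs, carried less C1q per UMI. There were 91 such cells after photoconversion and 145 in the control, with 5 cells in each library between 0.05 and 0.2%. C1q stood at 18940 CPM in Malat1-poor and 29329 CPM in other photoconversion cells, a ratio of 0.646 (0.626 to 0.666). In the control it stood at 21993 CPM in Malat1-poor and 28941 CPM in other cells, a ratio of 0.760 (0.742 to 0.778). By chain the ratios were 0.623 for C1qa, 0.694 for C1qb and 0.619 for C1qc after photoconversion, and 0.733, 0.790 and 0.759 in the control. Past 1.5-fold lower lay 2 of 3 chains after photoconversion, C1qa and C1qc, against 34.6% of 1919 genes, and 0 of 3 in the control, against 40% of 2601 genes. The median gene had a ratio of 0.838 after photoconversion and 0.774 in the control, so in the control the chains lay close to the median gene.

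Malat1-poor cells were shallower, with medians of 2037 UMIs after photoconversion and 1519 in the control, and had more ribosomal protein RNA. Its median share was 31.5% in Malat1-poor and 17.7% in other photoconversion cells, and 30.8% and 13.3% in control cells. All 3 chains were detected in 84.6% of Malat1-poor photoconversion cells (75.5 to 91.3%) and 84.8% of Malat1-poor control cells (77.9 to 90.2%). Thinned to 1000 UMIs, the shares were 84.1% (53 of 63 cells) and 90.6% (87 of 96 cells). In these cells C1qa made up 35.5% and C1qb 36.2% of C1q UMIs after photoconversion, and 35.9% and 34.9% in the control. Of those C1q UMIs, 3249 of 4363 and 5828 of 7621 lay in Cst7-dominant cells, so these shares are not independent of that class. In P2ry12-dominant Malat1-poor cells the C1qa share was 42.3% (38.7 to 46.0%) after photoconversion and 36.1% (33.4 to 38.8%) in the control.

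The Malat1-poor class crosses the other classes, since 58 of its 91 photoconversion and 92 of its 145 control cells were Cst7-dominant. Within Cst7-dominant cells the ratio of Malat1-poor to other cells was 0.636 (0.613 to 0.659) after photoconversion and 0.825 (0.802 to 0.848) in the control. Within P2ry12-dominant cells it was 1.034 (0.959 to 1.114) after photoconversion, with 12 Malat1-poor cells, and 0.808 (0.763 to 0.855) in the control, with 28. The lower C1q of Malat1-poor cells was thus present within Cst7-dominant cells of both libraries and, among P2ry12-dominant cells, in the control. Conversely, without Malat1-poor cells the ratio of Cst7-dominant to P2ry12-dominant cells was 0.797 (0.782 to 0.813) after photoconversion and 0.756 (0.744 to 0.768) in the control.

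Markers of other cell types also differed between Malat1-poor and other cells. Oligodendrocyte markers were higher in Malat1-poor cells of both libraries, at 269 and 122 CPM in photoconversion cells and 251 and 152 CPM in control cells, with Mog and Ptgds at 0 in both Malat1-poor groups. Endothelial and mural markers summed to 547 CPM in Malat1-poor and 192 CPM in other photoconversion cells, with Acta2 at 0 in the class, and to 248 and 327 CPM in control cells, with Vtn, Rgs5 and Acta2 at 0 in the class. The 315 control UMIs of Acta2 thus all lay in the other cells. Astrocyte markers stood at 317 and 151 CPM in photoconversion cells and 144 and 225 CPM in control cells, with Aqp4 and Gja1 at 0 in both Malat1-poor groups. Of 4 measured astrocyte markers, 3 were higher and 1, Slc1a3, lower in Malat1-poor photoconversion cells. In the control 2 were higher and 2 lower. There Slc1a3 stood at 11.5 against 103 CPM, while Aldoc was nearly level, at 28.9 against 29.4 CPM. Slc1a2 stood at 37.5 against 21.7 CPM and Mt3 at 57.7 against 47.2 CPM, so the lower control sum was mostly of Slc1a3. Without the barcodes of other cell types the log2 ratio of C1q was -0.60 after photoconversion and -0.40 in the control, against -0.63 and -0.40 with them, and the part of marker RNA in the remaining cells was not tested.

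Cells with equal counts of Cst7 and P2ry12, of which 21 of 27 photoconversion and 45 of 58 control cells had 0 of each, differed most between the libraries. C1q stood at 22412 CPM in 27 photoconversion and 13398 CPM in 58 control cells, a ratio of 1.673 (1.538 to 1.819). The control cells of this class carried 135 UMIs of monocyte markers (1169 CPM, Vcan at 0) and 348 UMIs of endothelial and mural markers (3014 CPM, Slco1a4 and Vtn at 0). Most of the latter were of Acta2, which had 315 UMIs over all kept control cells. It stood at only 1.36 CPM in Cst7-dominant and 3.57 CPM in P2ry12-dominant control cells. The photoconversion cells carried 2 UMIs of monocyte markers (51.6 CPM, 1 of 5 detected) and 95 of endothelial and mural markers (2450 CPM, Acta2 at 0). The part of these markers in the difference was not tested.

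The rest of the classical pathway was nearly undetected beside its recognition molecule. Of the 5 genes for C1 proteases 0 reached 100 UMIs over both libraries. The single genes named below that limit were chosen after their values were seen. C1ra had 2 UMIs after photoconversion and 7 in the control, C1s1 2 and 1, and C1rl 6 and 9. Of 12 matched genes for other classical, lectin and terminal components 0 reached 100 UMIs. C2 had 6 and 3 UMIs, C3, the central component, 4 and 11, and C4b 31 after photoconversion and 13 in the control. Of 22 other proteins with a C1q-like domain, such as the cerebellins and adiponectin, 0 reached 100 UMIs.

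Of 12 complement regulators 1 was measured, Cr1l, the rodent gene for the inhibitor Crry, with 138 UMIs after photoconversion and 226 in the control and a ratio of 0.815 (0.654 to 1.01). It was lower in Cst7-dominant than in P2ry12-dominant cells, with ratios of 0.648 after photoconversion and 0.455 in the control.

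Of 14 proteins that bind C1q or serve as complement receptors, 10 were measured, with a median library ratio of 0.955, close to the 0.958 of all genes. Calreticulin, Calr, a binding partner of the collagen-like stalk, stood at 597 CPM after photoconversion and 718 CPM in the control, a ratio of 0.832 (0.771 to 0.898). Itgb2, the beta chain of the complement receptors CR3 and CR4, had a ratio of 0.772 (0.680 to 0.875), and its partner Itgax 1.29 (1.07 to 1.56). Lair1, an inhibitory receptor for collagens and C1q, had 1.02 (0.924 to 1.12). The C3a receptor C3ar1 had 0.955 (0.836 to 1.09). The C5a receptor C5ar1 had 0.755 (0.614 to 0.926).

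Between classes this list had a median ratio of 0.674 after photoconversion and 0.750 in the control, with 5 and 4 of 10 members past 1.5-fold lower. Over all genes the medians were 0.966 and 0.876, and 23.7% and 27.6% of genes lay past that fold. Of the 10, 8 were below 1 in each library, and Itgax was the 1 member past 1.5-fold higher, at 10.7 times its P2ry12-dominant level in Cst7-dominant photoconversion cells and 10.3 times in control cells. Lair1 had ratios of 0.618 and 0.630. In Malat1-poor cells the list median was 0.480 after photoconversion and 0.442 in the control, lower than the 0.623 and 0.759 of the chains.

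Of 17 genes for collagen folding and secretion, which collagen-like chains need on their way out of the cell, 16 were matched and 9 measured. Their median library ratio was 0.926. Hspa5, the chaperone BiP, stood at 258 CPM after photoconversion and 336 CPM in the control, a ratio of 0.767 (0.683 to 0.860). Plod1, a lysyl hydroxylase, had 63 and 136 UMIs and a ratio of 0.618 (0.451 to 0.839), and was the only member of 9 past 1.5-fold, where 4.91% of all genes lay in either direction. Ssr4, a subunit of the translocon-associated complex, had 1.01 (0.948 to 1.08). Between Cst7-dominant and P2ry12-dominant cells Hspa5 had ratios of 0.503 after photoconversion and 0.499 in the control, while Ssr4 had 1.52 and 1.47, so these secretory genes did not all differ in the direction of the chains.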

How the data were processed

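The authors deposited, for each of 2 droplet libraries (10x Genomics Chromium), an unnormalised matrix of UMI counts, made with Cell Ranger 3.0.2 per the file headers, and with bcl2fastq and the mm10 build per the submitters' processing notes. Each library listed 2000 barcodes. Kept cells had at least 200 genes and at most 10% mitochondrial UMIs. Doublets were not removed, and leaving out the deepest 5% of cells was tried instead. UMIs were summed over cells and given per total UMIs (CPM). Ratios carry exact conditional binomial intervals, levels exact Poisson intervals and shares Clopper-Pearson intervals, all at 95% and for counting error only. With 1 library of pooled mice per group no test was made.

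Cells were classed by the larger of their Cst7 and P2ry12 counts and, separately, by Malat1 below 0.1% of UMIs, so the classes cross. All-gene ratios used genes with at least 100 UMIs, with 0.5 added to each count. The chains, gene lists and class rules were chosen with earlier results of these data known. Besides the chains and the genes that set the classes, the text names, from each list, members with at least 100 UMIs that were among the 4 most abundant or the 2 with the most extreme library ratio, and the 8 genes most like the summed chains; some of these genes are not reported here. C4a and Leprel1 had no match by symbol and are not analysed here. Positions and transcripts came from GENCODE M21. Promoters came from RefSeq (GRCm38.p6), where 2 of 3 chains matched. Python 3.11.15 with numpy 2.4.6, scipy 1.17.1 and pandas 2.3.3 was used, and edgeR 4.0.16 in R 4.3.3 for an alternative scaling. The calculations were tested on simulated data.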

Additional observations from a re-analysis of the deposited data

Results flagged for a closer look

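The difference in C1q between Malat1-poor and other cells pointed in opposite directions in the libraries within P2ry12-dominant cells. The log2 ratio was 0.048 after photoconversion (12 Malat1-poor and 121 other cells) and -0.31 in the control (28 and 262 cells). In cells with equal counts of Cst7 and P2ry12 it was -0.86 after photoconversion (21 and 6 cells) and 0.40 in the control (25 and 33 cells). The difference between the libraries was not tested in either class, and the photoconversion interval of the first ratio, 0.959 to 1.114 on the linear scale, includes 1. The control cells of the equal class carried 135 UMIs of monocyte markers and 348 of endothelial and mural markers, the latter mostly of Acta2. The part of these in the ratio was not tested.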

How the results depend on the processing

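Values are log2 ratios of C1q unless named otherwise, and for each result that moved the cause was not tested. Between libraries (0.0033) the ratio was 0.034 with mitochondrial, ribosomal protein and Malat1 UMIs left out of the denominator, -0.034 with cells weighted equally, -0.034 thinned to 1000 UMIs, -0.014 without the deepest 5% of cells and 0.063 with TMM scaling, so its sign was not stable. Between Cst7-dominant and P2ry12-dominant cells (-0.41 after photoconversion, -0.44 in the control) it was -0.31 and -0.39 at no more than 5% mitochondrial UMIs, -0.29 and -0.30 with the reduced denominator, -0.70 and -0.67 with cells weighted equally, -0.61 and -0.73 thinned, -0.47 and -0.48 without the 10 cells richest in C1q, and -0.33 and -0.40 without Malat1-poor cells. With a class margin of 3 UMIs and 2-fold it was -0.50 in the control. In depth ranges, an alternative chosen after seeing the data, it was -1.15 and -1.51 at 500 to 2000 UMIs and -0.61 and -0.38 at 2000 to 8000 UMIs. At 8000 UMIs and over it turned to 0.016 and 0.62, with C1qa at 0.069 and 0.60, C1qc at 0.028 and 0.59, and C1qb at 0.66 in the control. At 500 to 8000 UMIs with the reduced denominator, also chosen after seeing the data, it was -0.50 and -0.36. Between Malat1-poor and other cells (-0.63 and -0.40) it was -0.38 and -0.16 with the reduced denominator, -0.75 and -0.66 with cells weighted equally, -0.78 and -0.93 thinned, and -0.68 and -0.49 without the deepest cells. It was -0.57 after photoconversion with the Malat1 limit at 0.2%, and in the control -0.43 without the richest cells and -0.28 within Cst7-dominant cells. Within P2ry12-dominant cells it turned to 0.048 after photoconversion, with C1qa at 0.19 and C1qb at 0.065, and was -0.31 in the control. The C1qa share (36.7 and 37.1%) was 37.3 and 39.0% with cells weighted equally, 38.4 and 39.0% thinned, 36.2% after photoconversion at no more than 5% mitochondrial UMIs and 37.9% in the control without the deepest cells. The C1qb share (33.9 and 33.8%) was 33.0 and 32.4% with cells weighted equally, 32.7 and 32.3% thinned, and in the control 34.1% at no more than 5% mitochondrial UMIs and 33.1% without the deepest cells. The C1qc share (29.4 and 29.2%) was 28.9 and 28.6% thinned and 28.6% in the control with cells weighted equally. The variance ratio of C1qa in the control (2.67) was 2.34 without the deepest cells. Of 320 alternative values, 79 for the main comparisons and 91 for the single values beside them stayed within counting error of the value reported, 52 and 88 moved beyond it, and 3 and 7 reversed in sign. No paired analysis was possible because each group has 1 library, and for the same reason no replicate could be left out.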
